A study of Mus musculus with 4 samples.

Results

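The retinal guanylate cyclases, their calcium-sensing activators and the factors that handle them were followed in the mouse retina when Nrl was removed from adult animals. The genes were chosen by name: the cyclase genes Gucy2e and Gucy2f, the activator genes Guca1a and Guca1b, and the trafficking and chaperone genes Rd3 and Aipl1. Of these 6 genes, 5 had a probe set that the platform annotation names with a single symbol, of 19421 genes tested in all. Guca1b had no such probe set and was not analysed here. Each of the other genes had 1 probe set, so no choice between probe sets was needed.

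The knockout mice were Nrlflox/flox; CAG-CreERTM and the control mice Nrlflox/+; CAG-CreERTM, so the controls also carried a floxed allele beside an intact one. Every mouse received 4-hydroxytamoxifen intraperitoneally each day from postnatal day 42 to 44, and retinas were taken on postnatal day 63, 19 days after the last dose. CAG is a promoter active in most cell types, so Cre was not restricted to rods. There were 2 arrays per genotype, and each array held total RNA of 4 retinas pooled from 2 mice. With so few arrays precision is limited. The limma p-values set a difference against the spread between pools, moderated with the variance over all genes. That spread includes sex, since the 2 pools of each genotype differed in sex by their sex-linked genes. The values are log2 signals as deposited, and array medians over all probe sets ran from 5.99 to 6.04. A signal depends on the probes as well as on the transcript, so levels of different genes were not compared.

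In rods and cones, cyclic GMP holds the channels of the outer segment open in the dark. Light leads to hydrolysis of cyclic GMP by phosphodiesterase, the channels close and calcium falls. Guanylate cyclase activating proteins sense the fall in calcium and switch on the membrane cyclases, which make cyclic GMP again from GTP. Nrl is a transcription factor that drives rod genes, and together with the homeodomain factor Crx it acts at many of their promoters.

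Over all genes, 0 of the 5 measured genes of the group were called higher or lower at a limma adjusted p under 0.05, where 39 of 19421 genes, or 0.201%, were called, 0.139% higher and 0.0618% lower. At an unadjusted limma p under 0.05 there was 1 gene of the group, Gucy2f, against 1374 genes (7.07%) overall. The group did not lie on one side of 0. Both cyclases were lower in knockout retina, with Gucy2f at 74.2% of the control signal and Gucy2e at 87.2%, whereas Guca1a, Rd3 and Aipl1 lay between 107% and 110% of it. The arrays of the groups did not overlap in 4 of the 5 genes, against 35.4% of all genes. In 2 genes both knockout arrays lay below both control arrays, as in 18.4% of all genes, and in the other 2 they lay above, as in 17% of all genes. Over the 5 genes the median log2 fold change was 0.09 and over all genes it was 0.00. In bulk retina, fewer cells of a type cannot be told apart from less RNA per cell.

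The promoters of the cyclases and of Guca1a are shown, picked with their values known. All 3 hold the core letters bound by Crx, and the log2 fold changes were below 0 for the cyclases and above it for Guca1a. The 95% intervals of Gucy2e (−0.46 to 0.07) and Guca1a (−0.14 to 0.33) include 0, so their directions are not settled. Aipl1, whose sequence is not shown, also holds these letters. Each line gives 250 bases that end just before the transcript start of the RefSeq promoter entry on GRCm38.p6, read along the gene. Capitals mark GGATTA or, on the other strand, TAATCC.
Gucy2e: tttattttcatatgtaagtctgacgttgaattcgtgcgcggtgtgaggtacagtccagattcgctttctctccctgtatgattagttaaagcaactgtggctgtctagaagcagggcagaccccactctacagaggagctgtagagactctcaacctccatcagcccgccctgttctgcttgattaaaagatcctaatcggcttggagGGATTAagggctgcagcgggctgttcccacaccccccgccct
Gucy2f: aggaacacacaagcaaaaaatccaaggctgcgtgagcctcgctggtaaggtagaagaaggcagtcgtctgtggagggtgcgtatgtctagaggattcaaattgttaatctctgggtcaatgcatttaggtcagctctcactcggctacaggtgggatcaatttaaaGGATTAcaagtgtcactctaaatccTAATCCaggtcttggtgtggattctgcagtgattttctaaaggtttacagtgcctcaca
Guca1a: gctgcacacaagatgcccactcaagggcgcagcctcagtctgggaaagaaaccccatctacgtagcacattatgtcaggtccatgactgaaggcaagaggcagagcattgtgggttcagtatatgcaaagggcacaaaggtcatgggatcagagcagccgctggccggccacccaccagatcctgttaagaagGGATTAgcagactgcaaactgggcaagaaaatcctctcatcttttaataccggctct
They lie on the minus strand at chr11:69237023-69237272 for Gucy2e, chrX:142196937-142197186 for Gucy2f and chr17:47400607-47400856 for Guca1a. The starts used lie inside the outer gene bounds of the same annotation, by 257 bases for Gucy2e, 340 for Gucy2f, 4951 for Aipl1 and 12908 for Guca1a, and the Rd3 starts by 20880 and 21764. Sequence at the outer bounds was not searched.

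Gucy2e had a single GGATTA beginning 42 bases before the start, and Guca1a had one beginning 57 bases before it. Gucy2f held 2 matches, GGATTA beginning 84 bases and TAATCC beginning 59 bases before the start. Aipl1, on the minus strand at chr11:72037510-72037759, had one GGATTA beginning 53 bases before its start. The 2 RefSeq windows of Rd3 had no match to these letters. Of 32851 promoter windows of the same length, 6.25% held at least 1 match on either strand and 0.295% at least 2. The letters TGCTGA, from the element bound by Nrl and its Maf relatives, searched with its reverse complement TCAGCA, occurred once in Aipl1, beginning 187 bases before the start, and in no other window of the group. These letters were found in 16.1% of all windows, and they overlapped no GGATTA match in Aipl1. A match is a run of letters only, and binding was not measured.

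**Figure D1:**
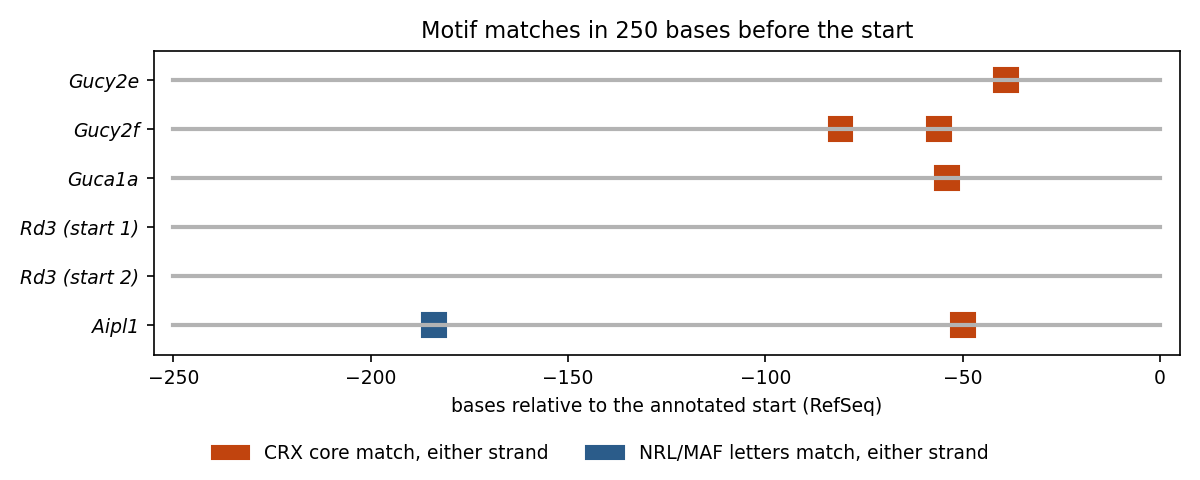
Positions of the Crx core letters (orange) and the Nrl/Maf letters (blue) in the 250 bases before each annotated start, in bases from the start; Rd3 has 2 starts. Gucy2f holds 2 core matches, Gucy2e, Guca1a and Aipl1 hold 1 each, and Rd3 holds none.

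Gucy2f encodes guanylate cyclase 2, one of the pair of membrane cyclases of photoreceptor outer segments, and lies on the X chromosome (GRCm38.p6, 142079286 to 142197276). Its log2 signal was 9.45 and 9.38 on the arrays of knockout retina, against 9.84 and 9.85 on those of control retina. Both knockout arrays were below both controls, and the gap between the groups was wider than the spread within either. The means were 9.42 ± 0.05 and 9.85 ± 0.01 (SD, n = 2 each), which differ by −0.43 on the log2 scale (SE 0.10, 95% interval −0.67 to −0.19). This corresponds to 74.2% of the control signal, with an interval from 62.9% to 87.4%. Adjusted over all genes, this difference missed the threshold (limma adjusted p = 0.353, unadjusted p = 0.00421). It passed where limma let the variance follow the mean signal (adjusted p = 0.0420), with the same log2 fold change; over all the settings tried, the adjusted p ran from 0.0420 to 0.954. Of all genes, 1.07% had a log2 fold change as low as that of Gucy2f or lower.

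Gucy2e encodes guanylate cyclase 1, the mouse counterpart of the human cyclase gene GUCY2D and the cyclase present in both rods and cones. It lies on chromosome 11 (69218117 to 69237279). Its log2 signal was 6.15 and 6.21 on the arrays of knockout retina, against 6.29 and 6.46 on those of control retina. The knockout arrays again lay below the controls, but the first control array lay closer to the knockout arrays than to the second control array. The log2 fold change was −0.20 (SE 0.11, 95% interval −0.46 to 0.07, limma adjusted p = 0.800). The signal of this probe set was close to the array medians, and no detection values were used, so it cannot be said how much of it was background.

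The change of Gucy2e exceeded that of Gucy2f by 0.23 on the log2 scale: by 0.24 between the replicate 1 pools and by 0.22 between the replicate 2 pools. A two-sided exact permutation test of the per-array difference between the cyclases gave p = 0.333, the smallest that 2 arrays against 2 can give, so this test could not pass the threshold whatever the values.

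Guca1a encodes guanylate cyclase activating protein 1, an EF-hand calcium sensor that stimulates the cyclases when calcium is low. It lies on chromosome 17 (47394557 to 47413514), beside Guca1b (47384694 to 47392967), the gene for activating protein 2. The log2 signal of Guca1a was 12.052 and 12.121 on the arrays of knockout retina, against 11.980 and 12.005 on those of control retina. The knockout arrays were above the controls by a small margin, at a log2 fold change of 0.09 (SE 0.10, 95% interval −0.14 to 0.33, limma adjusted p = 0.923). The interval reaches from 90.5% to 126% of the control signal. The highest signal on any array was 12.75, so Guca1a lay near the top of the range, where compression of differences was not tested.

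Rd3 encodes a protein that binds the cyclases, keeps them inactive during their passage through the inner segment and is needed for them to reach the outer segment. It lies on chromosome 1 (191956490 to 191988282). Its log2 signal was 6.79 and 6.76 on the arrays of knockout retina, against 6.57 and 6.77 on those of control retina. The groups overlapped: the second control pool stood between the knockout pools and the first control pool stood below them. The log2 fold change was 0.10 (SE 0.11, 95% interval −0.17 to 0.38, limma adjusted p = 0.927). Without control replicate 1 it was 0.00 (adjusted p = 0.997), and without control replicate 2 it was 0.21 (adjusted p = 0.765).

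Aipl1 encodes a photoreceptor co-chaperone that works with Hsp90 in the assembly of phosphodiesterase 6, the enzyme that breaks cyclic GMP down. It lies on chromosome 11 (72028717 to 72042460). Its log2 signal was 6.968 and 7.002 on the arrays of knockout retina, against 6.806 and 6.886 on those of control retina. Both knockout arrays lay above both controls, at a log2 fold change of 0.14 (SE 0.10, 95% interval −0.10 to 0.38). The difference was not called (limma adjusted p = 0.861).

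**Figure D2:**
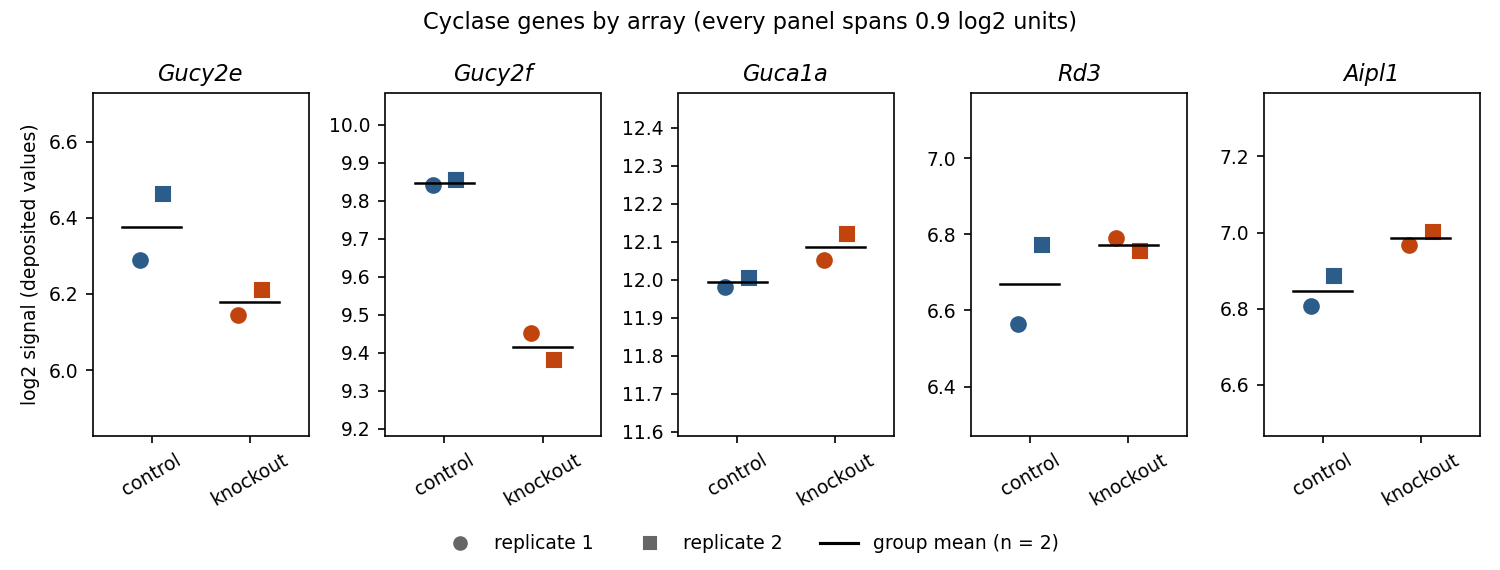
Deposited log2 signal of each gene on the 4 arrays, control in blue and knockout in orange, with replicate 1 as circles, replicate 2 as squares and lines at the group means (n = 2); each panel covers 0.9 log2 units. The knockout arrays of Gucy2f (9.45 and 9.38) stand clear of the controls (9.84 and 9.85), and the groups of Rd3 overlap.

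Pools with the same replicate number were of the same sex, by their sex-linked genes. Xist, transcribed from the inactive X chromosome of females, was low in both replicate 1 pools (knockout 4.07, control 4.09) and high in both replicate 2 pools (knockout 10.66, control 10.47), whereas the Y-linked genes Kdm5d and Uty ran the other way (7.78 or more in replicate 1, at most 5.02 in replicate 2). Within replicate 1, knockout minus control was −0.39 for Gucy2f, −0.14 for Gucy2e, 0.07 for Guca1a, 0.22 for Rd3 and 0.16 for Aipl1. Within replicate 2 the differences were −0.47, −0.25, 0.12, −0.01 and 0.12 in the same order. Every gene but Rd3 kept its sign in both pairs, which follows from the arrays of the groups not overlapping in those genes. The X-linked Gucy2f had nearly equal signals in the control pools of different sex.

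Nrl, the targeted gene, had a log2 signal of 7.57 and 7.05 on the arrays of knockout retina, against 8.21 and 8.13 on those of control retina. Its log2 fold change of −0.86 (limma adjusted p = 0.289) ran in the direction of the labels without passing the test. Whether its probes lie inside the floxed part is not stated in the sources used here, so this is a limited check. Among markers of other retinal cells, microglial genes stood highest: all 6 lay above 0, 1 was called (Tyrobp, a myeloid signalling adaptor, at 1.12, adjusted p = 0.0347), the median was 0.53, and the mean signal of the list was 6.20 in both knockout pools against 5.52 and 5.64 in control. No gene was called among 5 markers of bipolar cells (median −0.06; Pcp2 −0.15, Cabp5 −0.14), 8 of amacrine and ganglion cells (median −0.06; Gad1 −0.26, Nefl −0.08), 6 of Müller glia (median 0.01; Glul −0.37, Apoe 0.24) or 6 of retinal pigment epithelium (median −0.19; Dct −0.32, Rpe65 −0.41). Whether the share of these cells bears on the genes of the group was not tested. Of 8 photoreceptor identity genes, Nrl itself among them, 1 was called, the disc rim gene Rom1 at −1.24. Their control means ran from 8.17 to 10.72, and the median log2 fold change was −0.64. The limma calls of Tyrobp and Rom1 were lost with the replicate number as a block (adjusted p = 0.0729 and 0.0627) and whenever 1 array was left out.

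The genes that work with the cyclases in the light response gave the scale for these values. Of 10 measured rod phototransduction genes, 2 fell and 0 rose, with a median log2 fold change of −0.49. Both knockout arrays lay below both controls in 9 of them, against 18.4% of all genes. Gnat1, the rod transducin α subunit, fell by 3.01 (SE 0.13, limma adjusted p = 0.00586), and Gnb1, the β subunit, by 1.47 (adjusted p = 0.0208). Gnat1 was also called with the replicate block (limma adjusted p = 0.0429) and without either knockout array, but not without control replicate 1 (0.216) or control replicate 2 (0.195). Gnb1 was called neither with the block (0.0623) nor with any 1 array left out (0.0578 to 0.312). The value of Gucy2f lay inside this list, with 7 rod genes lower and 3 higher. The next lower gene was Slc24a1, the rod sodium, calcium and potassium exchanger, at −0.46, and the next higher was the rod arrestin gene Sag, at −0.32; the interval of Gucy2f overlapped both of theirs. The rod phosphodiesterase subunits that Aipl1 helps to assemble had −0.82 for Pde6b, −0.50 for Pde6g and −0.22 for Pde6a, against 0.14 for Aipl1 itself. The phosphodiesterase subunits of the cone list had 0.87 for Pde6c (limma adjusted p = 0.0616) and −0.20 for Pde6h. Apart from Gnat1 and Gnb1, the rod and phosphodiesterase genes named here were picked with their values known.

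In the cone phototransduction list, 2 of 11 genes rose, 0 fell and 9 did not pass, with a median of −0.13. Of the 11, 5 lay above 0 and 6 below. Both knockout arrays lay above both controls in 4, against 17% of all genes, and below them in 4, against 18.4%. The 2 that rose were Gnb3 at 1.59 and Gnat2 at 1.10 (limma adjusted p = 0.0366 and 0.0402), both subunits of cone transducin. Neither was called with the replicate block (limma adjusted p = 0.0623 and 0.132) or with any 1 array left out (0.134 to 0.420 over both). The lowest value was that of Opn1sw, the S opsin gene, named here with its value known, at −0.52 (adjusted p = 0.281). Guca1a, Rd3 and Aipl1 were below these rises and above the list median.

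**Figure D3:**
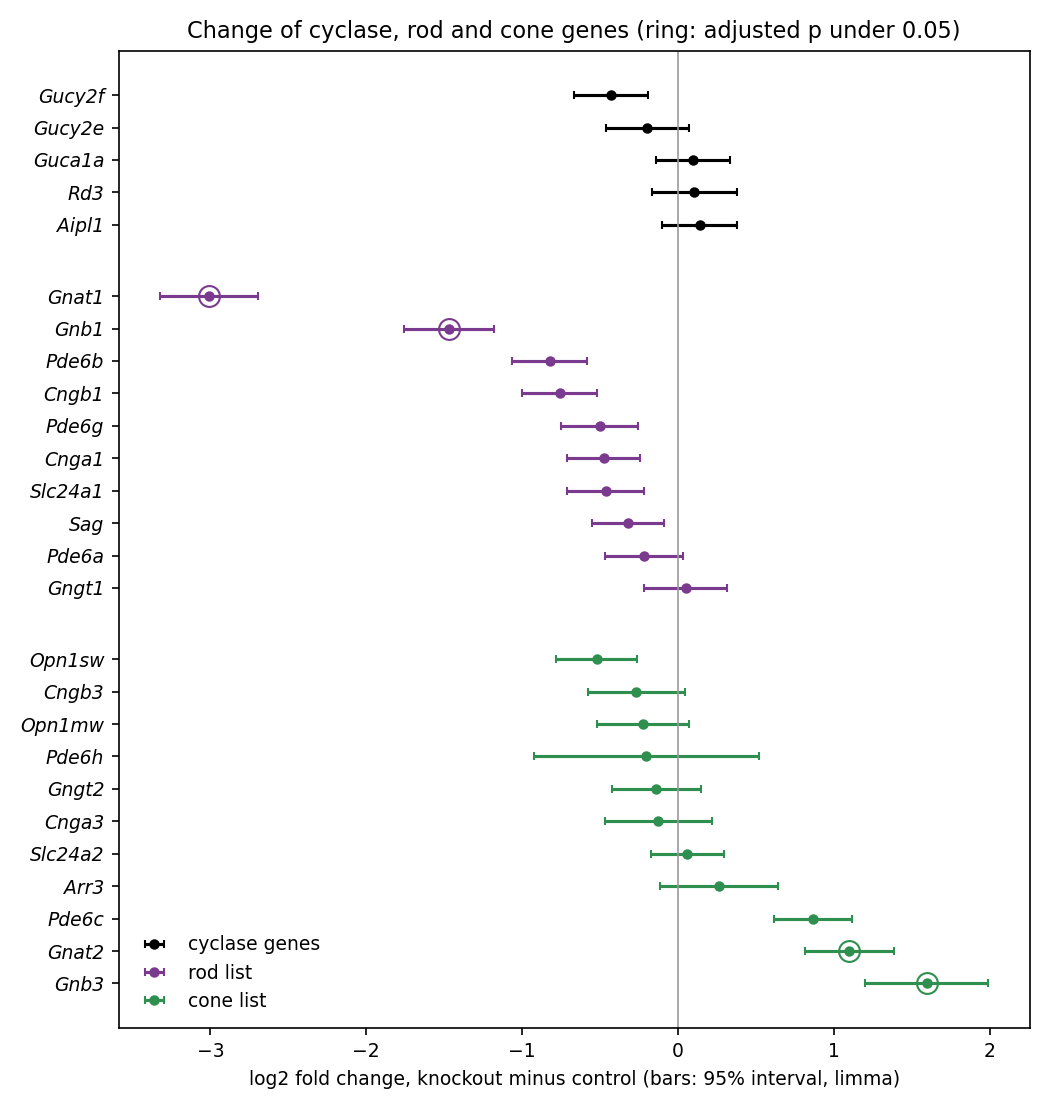
Log2 fold change, knockout minus control, with 95% limma intervals. Black marks the measured genes of the group (labelled cyclase genes), purple the rod list and green the cone list. Rings mark an adjusted p under 0.05. Gucy2f at −0.43 sits among the rod genes and to the right of Gnat1 and Gnb1. The intervals of the other genes of the group include 0, and Gnb3 and Gnat2 stand apart on the right.

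Each gene was also set against the rod and cone lists on the same array. Relative to the mean of the rod list, the change was 0.37 for Gucy2f, 0.60 for Gucy2e, 0.89 for Guca1a, 0.90 for Rd3 and 0.94 for Aipl1. All 5 were above 0 in both replicates, and each gave an exact two-sided permutation p of 0.333, the smallest possible. The rod mean is pulled down by Gnat1 and Gnb1. Against the median of the list (genes centred on their means, an alternative chosen after seeing the data), Gucy2f stood at 0.08, with 0.09 and 0.07 in replicates 1 and 2, so its value was close to that of a middling rod gene. Gucy2e stood at 0.32, Guca1a at 0.61, Rd3 at 0.62 and Aipl1 at 0.65 by this measure.

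Relative to the mean of the cone list, the change was −0.65 for Gucy2f (exact permutation p = 0.333) and −0.42 for Gucy2e (exact permutation p = 0.333). It was −0.12 for Guca1a, −0.11 for Rd3 and −0.08 for Aipl1, where the exact permutation p was 0.667, 1 and 0.667. Against the cone list's median these 3 turned to 0.09, 0.10 and 0.14, while Gucy2f moved to −0.43 (exact permutation p = 0.333) and Gucy2e to −0.20 (exact permutation p = 0.667), both still below 0.

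**Figure D4:**
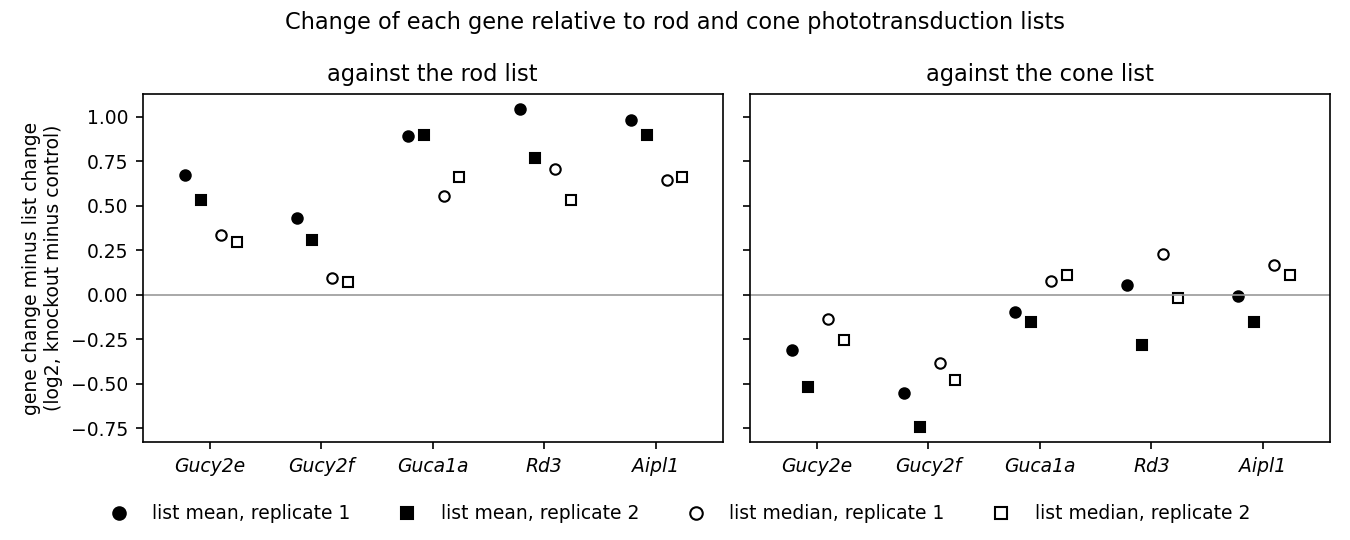
Change of each gene minus that of the rod list (left) or cone list (right), log2, knockout minus control; filled symbols use the list mean, open symbols the list median, circles replicate 1 and squares replicate 2. Against the rod list every symbol lies above 0, lowest for Gucy2f, and against the cone list both cyclases lie below 0.

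Genes around the cyclases were summarised by lists. Among 9 other guanylate cyclase genes, those for natriuretic peptide receptors, gut and olfactory cyclases and the soluble nitric oxide receptor, 0 were called, 3 lay above 0 and 6 below, and the median was −0.08. Those with the smallest p were Gucy1b2, a soluble cyclase subunit, at −0.21, and Gucy2c, the guanylin receptor, at 0.31 (limma adjusted p = 0.792 and 0.823). Among 11 neuronal calcium sensors, the EF-hand relatives of the activating proteins, 0 were called, 10 lay below 0 and 1 above, and the median was −0.13. Kcnip4, a potassium channel interacting protein, had −0.24, and Rcvrn, the gene for recoverin, which regulates rhodopsin kinase, had −0.22 (adjusted p = 0.715 and 0.790).

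Of 5 measured genes that supply GTP, the substrate of the cyclases, 0 were called and the median was −0.11. Nme2, a nucleoside diphosphate kinase, had log2 signals of 7.10 and 6.83 in knockout against 6.44 and 6.20 in control retina. The knockout arrays lay higher by 0.64 (SE 0.14), which was not called (limma adjusted p = 0.316). Its close relative Nme1 had −0.19 (adjusted p = 0.780). Cross-hybridisation between this pair was not tested. The nucleotide enzyme genes Impdh1 and Guk1 were picked with their values known and had −0.13 and 0.08.

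Of 6 genes linked to the transport of cargo to the outer segment, 0 were called and the median was −0.02. Unc119, a carrier of acylated transducin, had −0.35 (SE 0.10, adjusted p = 0.504 by limma), and Pde6d, a carrier of prenylated proteins, had −0.15. Of 5 measured genes of the Hsp90 system and relatives of Aipl1, 0 were called and the median was 0.04. Fkbp8, an immunophilin of the same fold family, had 0.29 and the Hsp90 co-chaperone gene Ptges3 had 0.08. Each of these lists of genes around the cyclases, like the group itself, had 0 calls, against 0.201% of all genes.

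The genes most like Gucy2f and Gucy2e over the 4 arrays were sought among 9710 other genes with at least the median mean signal, by the root mean square difference between values centred on each gene's mean. For Gucy2f they were Ppef2, a phosphatase of photoreceptors, at 0.0119 log2 units, Dyrk2, a protein kinase, at 0.0164, and Mef2c, a transcription factor, at 0.0212. Their log2 fold changes were −0.43, −0.44 and −0.45, and 199 genes lay within 0.1 of Gucy2f. For Gucy2e they were Samd8 at 0.00789, Arnt2 at 0.0120 and Sh3bp5 at 0.0125, with 1606 genes within 0.1. The measure is not scaled, so a gene with small differences between arrays has more genes near it. The likeness rests on 4 arrays and is a description.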

How the data were processed

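Values on the log2 scale, as deposited by the authors, covered 21897 probe sets and 4 arrays. Per the submitters' processing notes, affy and limma were used, with no version or role, and how background was corrected and arrays normalized is not stated in them. The log2 scale was inferred from the range of the values. Symbols came from the platform annotation: 20877 probe sets had 1 symbol, 175 several and 845 none. Gene IDs were checked against RefSeq (GRCm38.p6), with 36 not matched and 0 symbols changed. The probe set with the highest mean stood for a gene, which left 19421 genes, with no filter on low signal. No probe set was named for Guca1b in the annotation as used here, so it was not analysed. RefSeq promoter sequences were matched by symbol for the other 5 genes.

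The genotypes were compared by limma 3.58.1 under R 4.3.3. The model held genotype alone, tests were two-sided, and p-values were adjusted by Benjamini-Hochberg over every gene tested, with calls at an adjusted p under 0.05. Only the limma fit was checked on simulated data, with independent noise and planted changes larger than that of any gene of the group. The permutation tests, list comparisons, likeness search and motif search were not checked in this way. Single per-array values were tested by exact permutation. The genes, the lists and the tests were chosen with earlier results of these data known. From each list the called genes, or the 2 with the smallest p, were named; further names are marked as picked with their values known, apart from Nrl and the sex-linked genes. Alternatives were another scaling, a filter on low signal, a variance trend, the mean of all probe sets, the replicate number as a block and leaving out each array.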

Additional observations from a re-analysis of the deposited data

How the results depend on the processing

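The log2 fold changes of Gucy2e, Gucy2f, Guca1a, Rd3 and Aipl1 kept their direction under quantile normalization, centred medians and without each array. The filter on low signal, the variance trend, the mean of probe sets and the replicate block left each fold change the same by construction. Those settings could not turn a direction. Centring medians lowered every fold change by the same small amount, as for Guca1a from 0.094 to 0.076. It could not turn these directions either. Leaving out an array could turn only Rd3, since the arrays of the groups did not overlap in the other genes. Gucy2f passed the threshold only with the variance trend (−0.43, adjusted p = 0.0420), where 1 gene of the group was called in place of 0; the cause was not tested. Without single arrays Gucy2f ran from −0.47 to −0.39, Gucy2e from −0.28 to −0.11, Guca1a from 0.06 to 0.13, Rd3 from 0.00 to 0.21 and Aipl1 from 0.10 to 0.18.

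Over all genes limma called 39, but 128 with the variance trend and 89 among genes at or above the 50th percentile of mean signal; the cause was not tested. Without single arrays the number ran from 0 to 11: 7 without knockout replicate 1, 11 without knockout replicate 2, and 0 without control replicate 1 or control replicate 2 (1355 and 1328 genes at an unadjusted p under 0.05). Those fits rest on 3 arrays and take the lone array to vary like the other group.

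The labels do not say that replicate numbers pair the pools, but same-numbered pools were of the same sex by their sex-linked genes. Deviations of same-numbered pools correlated at 0.239 across genes. The replicate block takes out sex together with anything else that the replicate number stands for. With the replicate block 8 genes were called by limma and none of the group (Gucy2f −0.43, adjusted p = 0.418).

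Against the cone list, Guca1a, Rd3 and Aipl1 turned from −0.12, −0.11 and −0.08 to 0.0941, 0.10 and 0.14 with the list median, chosen after seeing the data. Without single arrays Rd3 against the cone mean ran from −0.32 to 0.0941 and Aipl1 from −0.22 to 0.0654, turning only without control replicate 2. Relative changes against the rod list kept their direction under every alternative run. Leaving out an array could not turn them, since the per-array differences of the groups did not overlap. The comparison of Guca1a with Guca1b and the protein identities were not run, since no probe set or protein table for them was used here.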
